A study of Mus musculus with 14 samples.

Results

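The genes that cells switch on after exposure to type I interferon were examined in mouse lung while a mammary tumour grew at a distance. The set was given as a list of gene names, by a rule that used no measured value, although earlier results of these data were known when it was made. It held 30 genes in 7 functional roles: sensors of viral nucleic acid, transcription factors, the IFIT family, the OAS family, GTPases and other antiviral effectors, the ISG15 system with ubiquitin ligases, and a chemokine with other induced genes. Of the 30 genes, 28 had a probe set that carried their symbol alone, out of 18194 such genes on the array. Isg15 and Ifi44 were not analysed here. Of those 28 genes, 22 were bright enough to be tested, out of 10916 genes tested.

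The lungs came from BALB/c mice of 3 groups, and the labels name no allele and no agent beyond those given here. The 4T1 group had received cells of 4T1, a mouse breast carcinoma line labelled metastatic, in the fourth mammary fat pad. The 67NR group had received 67NR, a mouse breast carcinoma line labelled non-metastatic. The normal group had received PBS alone. Lungs were collected on day 6 from the injection, or once tumours had reached about 50 mm3, and all were flushed with PBS through the vessels before RNA extraction in all groups alike. There were 4 lungs in the 4T1, 5 in the 67NR and 5 in the normal group, each hybridised to 1 Affymetrix array. Each tumour class was represented by a single cell line, and age and sex were not given in the sources used here.

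Type I interferons are secreted when sensors of foreign or misplaced nucleic acid are triggered. They bind a receptor of the subunits IFNAR1 and IFNAR2, whose kinases JAK1 and TYK2 phosphorylate STAT2. With IRF9 it is part of the complex ISGF3, which binds interferon-stimulated response elements in the promoters of many interferon-stimulated genes. The products block viral entry, translation and replication, and several of them (the sensors, STAT2, IRF7, IRF9) feed back on the pathway itself. In lung the response is best known from infection with respiratory viruses, and a low tonic activity is present in healthy tissue.

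The interferon-stimulated response element was looked for in the RefSeq promoters of these genes, as a property of their sequence that is independent of the arrays. The window ran from 250 bases before to 50 bases after the transcription start (build GRCm38.p6, which is the C57BL/6J strain and not BALB/c). The motif searched was GAAANNGAAA on both strands, where N is any base, and overlapping matches were counted separately. Promoters were listed for 22 of the 30 genes, and the promoters of Dhx58, Mx1, Mx2, Oas2, Parp14, Rtp4, Usp18 and Zbp1 were not analysed here. A match was present for 12 of these 22 genes (54.5%), against 3.99% of all 27025 genes with a promoter of the same length. Among single promoters the share was 52.0% of 25, against 3.44% of 32851. Bst2, Ifit1, Ifit3, Isg15 and Oas1a each held at least 2 matches, and Isg15, whose level was not analysed here, held 3.

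Promoters of 4 members are shown because they span the range from paired matches to none. Capitals mark the motif on either strand. Ifit1 lies at chr19:34640639-34640938 on the + strand, with matches that begin 104 and 85 bases before the start. Oas1a lies at chr5:120907476-120907775 on the - strand, with overlapping matches 20 and 14 bases before the start. Rsad2 lies at chr12:26456403-26456702 on the - strand, with 1 match 120 bases before the start. Oasl1 lies at chr5:114922990-114923289 on the + strand, and these letters were not found in its window.
Ifit1: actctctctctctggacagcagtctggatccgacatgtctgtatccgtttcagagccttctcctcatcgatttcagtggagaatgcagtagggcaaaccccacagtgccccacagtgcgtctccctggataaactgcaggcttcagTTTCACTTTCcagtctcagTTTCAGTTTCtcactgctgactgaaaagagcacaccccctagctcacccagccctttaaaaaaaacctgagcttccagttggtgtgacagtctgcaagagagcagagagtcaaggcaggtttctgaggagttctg
Oas1a: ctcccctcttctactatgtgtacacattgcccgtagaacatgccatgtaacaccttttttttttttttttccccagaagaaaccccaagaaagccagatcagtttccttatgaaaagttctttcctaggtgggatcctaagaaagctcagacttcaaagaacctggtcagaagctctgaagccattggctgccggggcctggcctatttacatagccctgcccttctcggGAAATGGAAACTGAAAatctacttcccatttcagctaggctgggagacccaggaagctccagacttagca
Rsad2: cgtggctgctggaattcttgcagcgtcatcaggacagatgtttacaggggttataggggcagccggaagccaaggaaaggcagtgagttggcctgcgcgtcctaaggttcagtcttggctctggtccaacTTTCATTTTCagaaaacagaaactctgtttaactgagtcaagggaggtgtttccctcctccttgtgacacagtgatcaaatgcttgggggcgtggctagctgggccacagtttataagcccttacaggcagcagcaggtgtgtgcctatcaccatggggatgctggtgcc
Oasl1: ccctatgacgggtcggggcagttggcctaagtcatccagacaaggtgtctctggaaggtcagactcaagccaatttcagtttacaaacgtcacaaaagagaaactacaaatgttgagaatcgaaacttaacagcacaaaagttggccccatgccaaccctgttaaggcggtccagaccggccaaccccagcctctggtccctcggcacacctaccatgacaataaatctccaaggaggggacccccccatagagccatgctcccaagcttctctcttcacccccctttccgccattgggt

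No member of the interferon set passed the test in any comparison of groups. Levels are given as log2(intensity + 16) on the authors' scale, and changes are differences of these log2 levels between group means. A gene counted as changed at an adjusted p under 0.05 in limma with Benjamini-Hochberg adjustment over all 10916 genes tested. In 4T1 against normal lungs 0 of 22 members passed, with 0.412% of all genes passing (45 genes, all higher in 4T1). In 67NR against normal lungs 0 of 22 members and 0% of all genes passed. In 4T1 against 67NR lungs 0 of 22 members passed, with 0.760% of all genes passing (61 higher and 22 lower in 4T1). The labels do not say that each sample was its own mouse, so these p-values measure the spread between samples.

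At an unadjusted p under 0.05, limma counted 1 of 22 members (4.55%) in 4T1 against normal lungs, where 6.56% of all genes reached it. The count was 1 of 22 (4.55%) in 67NR against normal lungs, with 9.13% of all genes. It was 3 of 22 (13.6%) in 4T1 against 67NR lungs, with 12.4% of all genes. These shares were near or below the shares of all genes. The smallest adjusted p of any member was 0.588, 0.309 and 0.167 in the same order of comparisons.

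The levels of the groups overlapped for nearly every tested member. Between 4T1 and normal lungs the groups did not overlap for 0 of 22 members, against 2.72% of all genes. Between 67NR and normal lungs this count was 0 of 22, against 1.65%, and between 4T1 and 67NR lungs it was 1 of 22, against 4.56%. The 1 gene was Cmpk2, a mitochondrial nucleotide kinase gene.

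The changes were small in most members, and their direction differed between comparisons. The median change was 0.00 in 4T1 against normal lungs, within a range of -0.10 to 0.42 and with 12 of 22 changes above 0. In 67NR against normal lungs the median was 0.04, the range -0.07 to 0.43, and 17 of 22 changes were above 0. In 4T1 against 67NR lungs the median was -0.02, the range -0.31 to 0.48, and 6 of 22 were above 0. Over all genes tested the median was -0.001 in each comparison, and 49.5%, 49.6% and 49.6% of changes lay above 0. The comparisons share groups: the same 5 normal lungs serve both tumour groups, and the 67NR lungs enter 2 of the 3 comparisons. The size of change irrespective of direction had a median of 0.061, 0.052 and 0.065 in the members and of 0.053, 0.058 and 0.065 in all genes.

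The intervals show how large a difference these arrays leave room for. The 95% interval of the change, not adjusted for the number of genes, lay within 1.5-fold in either direction for 19 of 22 members in 4T1 against normal lungs. That count was 21 of 22 in 67NR against normal and 19 of 22 in 4T1 against 67NR lungs. All genes tested met it in 96.1%, 96.7% and 94.8% of cases. The intervals of all 22 tested members lay within 2-fold in each comparison. Oasl1, Oas2 and Rsad2 were the members whose interval reached beyond 1.5-fold in both comparisons with 4T1 lungs, and Rsad2 also in 67NR against normal lungs.

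**Figure D1:**
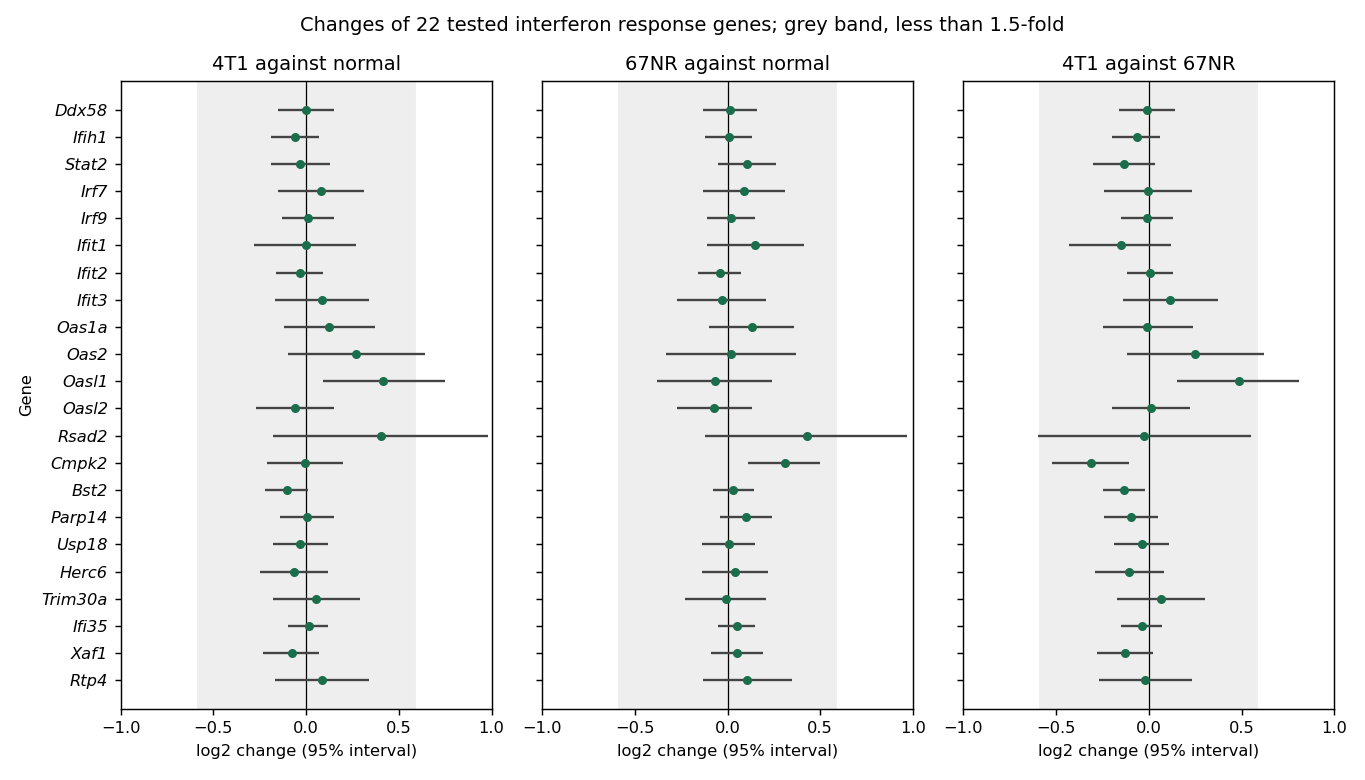
Change on the log2 scale of the 22 tested interferon response genes (points) with 95% intervals (lines) in the 3 comparisons; the grey band marks changes under 1.5-fold. Most intervals cross 0 and stay within the band, and those of Oasl1 (0.42 and 0.48) and Cmpk2 (0.31 and -0.31) do not cross 0 in 2 comparisons each.

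Among the sensors, Ddx58 encodes RIG-I, which recognises RNA with a free triphosphate end, and Ifih1 encodes MDA5, which recognises long double-stranded RNA. Ddx58 averaged 10.14 ± 0.03 in the 4T1 lungs (SD, n = 4), 10.15 ± 0.09 in the 67NR lungs (SD, n = 5) and 10.14 ± 0.15 in the normal lungs (SD, n = 5). Ifih1 was 9.72 ± 0.10 (SD, n = 4), 9.79 ± 0.07 (SD, n = 5) and 9.78 ± 0.10 (SD, n = 5) in the same order. Neither gene differed by more than the spread within groups, with limma's adjusted p at 0.72 or above in every comparison. Dhx58, the regulator LGP2, and Zbp1, a sensor of nucleic acid in the Z form that can start necroptosis, lay under the level filter with means of 7.07 and 6.92.

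The transcription factors were nearly level between groups. Irf7, the factor that amplifies interferon alpha transcription and is itself strongly induced by interferon, was 8.80, 8.66, 8.85 and 8.87 in 4T1 replicates 1 to 4. In 67NR replicates 1 to 5 it was 8.75, 9.13, 8.64, 8.56 and 8.93, and in normal replicates 1 to 5 it was 8.97, 8.67, 8.67, 8.71 and 8.55. The highest value belonged to a 67NR lung and the lowest to a normal lung, but both groups spanned the 4T1 values. Stat2, a subunit of ISGF3, had changes of -0.03 in 4T1 and 0.10 in 67NR against normal lungs. Irf9, the DNA-binding subunit of ISGF3, averaged 9.76 ± 0.08 in the 4T1 lungs (SD, n = 4), 9.77 ± 0.09 in the 67NR lungs (SD, n = 5) and 9.75 ± 0.11 in the normal lungs (SD, n = 5). The smallest adjusted p of the 3 factors was 0.495, in 4T1 against 67NR lungs.

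The IFIT genes, a cluster on chromosome 19 whose products bind foreign RNA ends and restrain translation, were measured for all 3 members. Ifit1 was 9.04, 9.41, 8.97 and 9.45 in the 4T1 lungs and 9.23, 9.65, 8.98, 9.48 and 9.51 in the 67NR lungs. It was 9.23, 9.22, 9.30, 9.19 and 9.17 in the normal lungs. The normal lungs lay close together, and lungs of both tumour groups lay above and below them. The group SDs were 0.25 in 4T1, 0.26 in 67NR and 0.05 in normal lungs, a difference in spread that was not tested. Ifit3, which stabilises IFIT1 on RNA, ranged from 9.69 to 9.99 in 4T1, from 9.35 to 10.05 in 67NR and from 9.63 to 9.93 in normal lungs. Ifit3 has a near-identical copy, Ifit3b, so its signal may hold both. Ifit2 varied least of the family, from 9.60 to 9.84 over all groups. The smallest adjusted p of the family was 0.691.

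The OAS family is known for making oligoadenylates that activate RNase L, and includes OAS-like proteins, not all of which have this activity. Oasl1, an OAS-like protein reported to restrain translation of Irf7, had the largest change of the 22 tested members. Its level was 8.48, 7.78, 8.29 and 8.24 in the 4T1 lungs, 7.79, 7.83, 7.64, 7.37 and 7.95 in the 67NR lungs, and 7.42, 7.66, 8.02, 7.81 and 8.0 in the normal lungs. Replicates 1, 3 and 4 of the 4T1 group stood above every other lung, and replicate 2 stood among the lungs of the other groups. The change was 0.42 (SE 0.15, 95% interval 0.09 to 0.75) in 4T1 against normal lungs, with limma's unadjusted p at 0.0172 and adjusted p at 0.588. It was 0.48 (SE 0.15, 95% interval 0.15 to 0.81) in 4T1 against 67NR lungs, with p at 0.00731 and adjusted p at 0.186. In 67NR against normal lungs the change was -0.07.

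Oas2 varied mostly within the 67NR group. It was 7.70, 7.94, 8.07 and 8.14 in the 4T1 lungs, 7.30, 8.33, 7.29, 7.72 and 7.92 in the 67NR lungs, and 7.55, 7.68, 7.75, 7.69 and 7.79 in the normal lungs. The highest and the lowest lung of all both carried 67NR tumours. The change in 4T1 against normal lungs was 0.27 (95% interval -0.10 to 0.64, adjusted p = 0.896 in limma). Oas1a, which has near-identical copies such as Oas1g and is uncertain for that reason, averaged 8.91 ± 0.10 in the 4T1 lungs (SD, n = 4), 8.92 ± 0.22 in the 67NR lungs (SD, n = 5) and 8.79 ± 0.20 in the normal lungs (SD, n = 5). Oasl2, the other OAS-like gene, had changes between -0.07 and 0.01. Oas3 lay under the level filter and scattered widely, from 5.71 to 7.90 in 4T1, from 7.0 to 7.45 in 67NR and from 5.61 to 7.20 in normal lungs.

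Cmpk2, which lies next to Rsad2 on chromosome 12, gave the smallest p among the effectors. It was 8.90, 8.75, 8.84 and 8.95 in the 4T1 lungs, 9.14, 9.28, 9.05, 9.20 and 9.19 in the 67NR lungs, and 8.88, 8.82, 8.52, 9.13 and 8.98 in the normal lungs. All 5 67NR lungs lay above all 4 4T1 lungs, and above 4 of the 5 normal lungs, with normal replicate 4 among them. The change was 0.31 (SE 0.09, 95% interval 0.11 to 0.50) in 67NR against normal lungs, with limma's unadjusted p at 0.00429 and adjusted p at 0.309. It was -0.31 (SE 0.10, 95% interval -0.52 to -0.11) in 4T1 against 67NR lungs, with p at 0.00577 and adjusted p at 0.167. A second probe set of Cmpk2 gave 0.18 and -0.17 in these comparisons, with adjusted p at 0.475 for the former. In 4T1 against normal lungs the change was 0.00.

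Rsad2 encodes viperin, a radical SAM enzyme that makes a chain-terminating nucleotide from the product of the CMPK2 reaction. It was 8.98, 8.84, 9.41 and 9.19 in the 4T1 lungs, 8.96, 9.88, 8.61, 8.64 and 9.57 in the 67NR lungs, and 9.16, 8.08, 8.67, 9.07 and 8.55 in the normal lungs. The highest lung was 67NR replicate 2 and the lowest normal replicate 2, and all 3 groups overlapped. The change was 0.40 (SE 0.27, 95% interval -0.18 to 0.98, adjusted p = 0.906 in limma) in 4T1 against normal lungs. It was 0.43 (SE 0.25, 95% interval -0.12 to 0.97, adjusted p = 0.656) in 67NR against normal lungs. Other probe sets of Rsad2 gave 0.41 and 0.57 in the former and 0.59 and 0.58 in the latter, and none passed the test.

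Bst2, whose product tetherin holds budding virus at the cell surface, was the other gene with an unadjusted p under 0.05 in 4T1 against 67NR lungs. It was 8.89, 8.95, 8.89 and 9.06 in the 4T1 lungs, 8.97, 9.21, 9.04, 9.12 and 9.07 in the 67NR lungs, and 9.08, 9.08, 9.02, 8.99 and 9.09 in the normal lungs. Of the 4T1 lungs, 3 lay below all lungs of the other groups, and replicate 4 lay among them. The change was -0.13 (SE 0.05, 95% interval -0.25 to -0.02) in 4T1 against 67NR lungs, with limma's unadjusted p at 0.0255 and adjusted p at 0.323. Against normal lungs it was -0.10, which did not pass. Parp14, a mono-ADP-ribosyltransferase, averaged 9.51 ± 0.11 in the 4T1 lungs (SD, n = 4), 9.60 ± 0.09 in the 67NR lungs (SD, n = 5) and 9.50 ± 0.11 in the normal lungs (SD, n = 5). The GTPase genes Mx1, which is defective in many laboratory mouse strains, and Mx2 were the dimmest members, with means of 5.86 and 5.31.

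**Figure D2:**
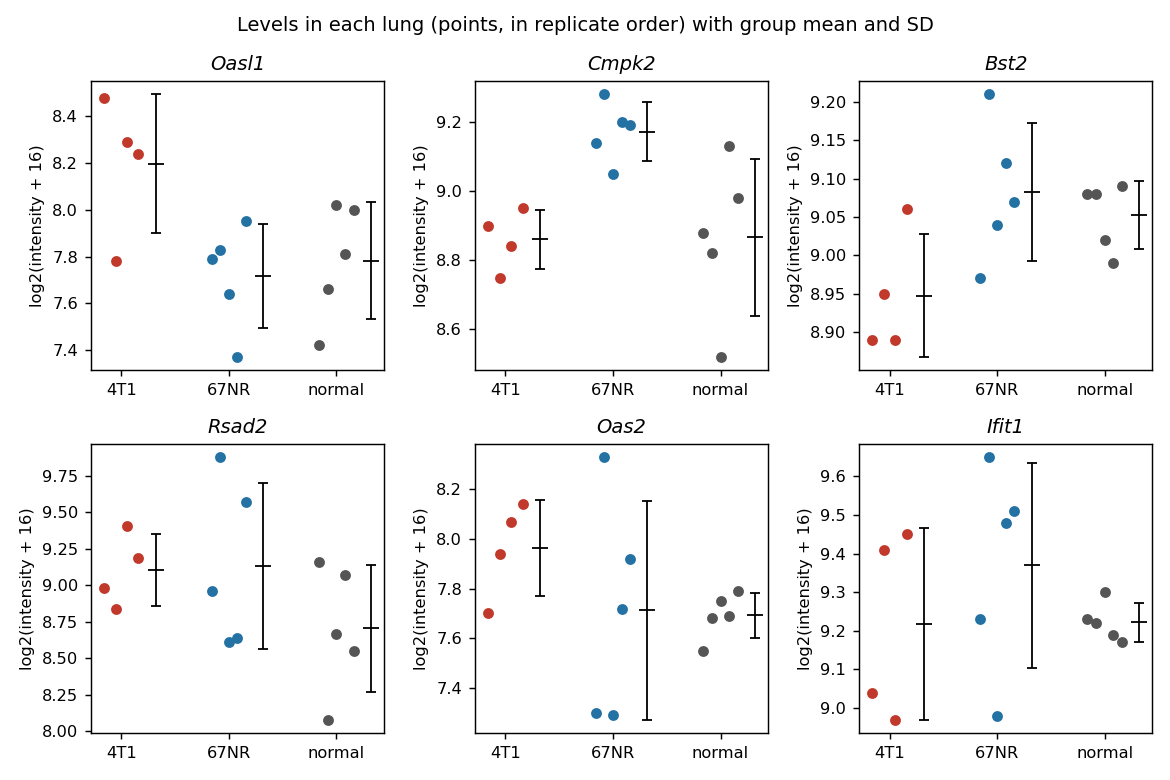
Level on the log2(intensity + 16) scale of 6 members in each lung (points, in replicate order) of the 4T1, 67NR and normal groups, with the group mean and SD beside them; vertical axes differ between genes and do not start at 0. The 67NR lungs of Cmpk2 lie above all 4T1 lungs, while Rsad2 and Oas2 scatter most within the 67NR group. Ifit1 scatters about as much in the 4T1 as in the 67NR group.

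The ISG15 system attaches a ubiquitin-like protein to targets, and its measured genes moved little on the probe sets used. Usp18, which removes ISG15 and blocks signalling at IFNAR2, averaged 9.13 ± 0.08 in the 4T1 lungs (SD, n = 4), 9.16 ± 0.07 in the 67NR lungs (SD, n = 5) and 9.16 ± 0.14 in the normal lungs (SD, n = 5). Herc6, the mouse ligase for ISG15, was 8.62 ± 0.10 (SD, n = 4), 8.72 ± 0.19 (SD, n = 5) and 8.68 ± 0.09 (SD, n = 5) in the same order. Trim30a, a TRIM family protein that dampens inflammatory signalling, ranged from 9.52 to 9.74 in 4T1, from 9.41 to 9.78 in 67NR and from 9.21 to 9.81 in normal lungs. The smallest adjusted p of these genes was 0.683 on the probe sets used. Another probe set gave 0.33 for Herc6 in 67NR and 0.33 for Trim30a in 4T1, both against normal lungs, and neither passed.

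Of the other induced genes, Cxcl10 encodes a chemokine that attracts activated T cells and lay under the level filter. It was 6.41, 6.22, 6.96 and 6.93 in the 4T1 lungs, 6.94, 6.95, 7.22, 7.59 and 7.21 in the 67NR lungs, and 6.94, 6.62, 6.29, 6.96 and 7.35 in the normal lungs. Replicates 3, 4 and 5 of the 67NR group lay above all 4T1 lungs, and replicates 1 and 2 lay just under the highest 4T1 value. With no level filter the change in 4T1 against 67NR lungs was -0.55, with limma's unadjusted p at 0.0258 and adjusted p at 0.45. Ifi35, a partner of NMI, was the steadiest member, between 11.62 and 11.84 in all 14 lungs. Xaf1, an antagonist of the apoptosis inhibitor XIAP, and Rtp4, a chaperone of receptors that also restrains viral replication, had changes between -0.13 and 0.11 in all comparisons. Their smallest adjusted p was 0.48.

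The 6 members under the level filter were examined without it, over all 18194 genes. None of them passed in limma, with 0, 0 and 2 at an unadjusted p under 0.05 in the 3 comparisons, the 2 being Cxcl10 and Mx2 in 4T1 against 67NR lungs. Of all genes in this fit without the filter, 5.86%, 7.16% and 9.3% reached that p, and 0.275%, 0.0055% and 0.335% passed. The smallest adjusted p was 0.991, 0.70 and 0.45. Oas3 had the widest difference, 0.79 in 67NR against normal lungs (adjusted p = 0.723), and its normal lungs alone spanned 5.61 to 7.20. For Mx2 the 67NR lungs held 2 values of 6.05 and 5.52 in replicates 4 and 5, and all other lungs lay between 5.09 and 5.32. The 4T1 values of Mx2, up to 5.21, lay below those of both other groups, though the lowest normal value also rounds to 5.21. Zbp1 was 7.02 to 7.17 in 67NR and 6.29 to 6.93 in normal lungs, a change of 0.31 (adjusted p = 0.70 in limma). Of the genes that passed the filter, 2.72%, 1.65% and 4.56% had groups that did not overlap in the 3 comparisons.

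Other probe sets of the same genes gave the same count of calls. The 28 genes had 46 probe sets, 12 genes had several, and 31 probe sets passed the level filter. Of these 31, 0 passed in limma in any comparison, and 3, 5 and 5 had an unadjusted p under 0.05; of all 17985 probe sets tested, 6.77%, 9.24% and 12.3% had such a p, and 55, 0 and 104 passed. For Trim30a, another probe set gave 0.33 in 4T1 against normal lungs (limma's unadjusted p at 0.00299, adjusted p = 0.347), against 0.05 for the probe set used. For Herc6, another probe set gave 0.33 in 67NR against normal lungs (unadjusted p at 0.000795, adjusted p = 0.272), against 0.04 for the probe set used. In 4T1 against 67NR lungs this Herc6 probe set gave -0.25 (unadjusted p at 0.00872, adjusted p = 0.215), against -0.11 for the probe set used.

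**Figure D3:**
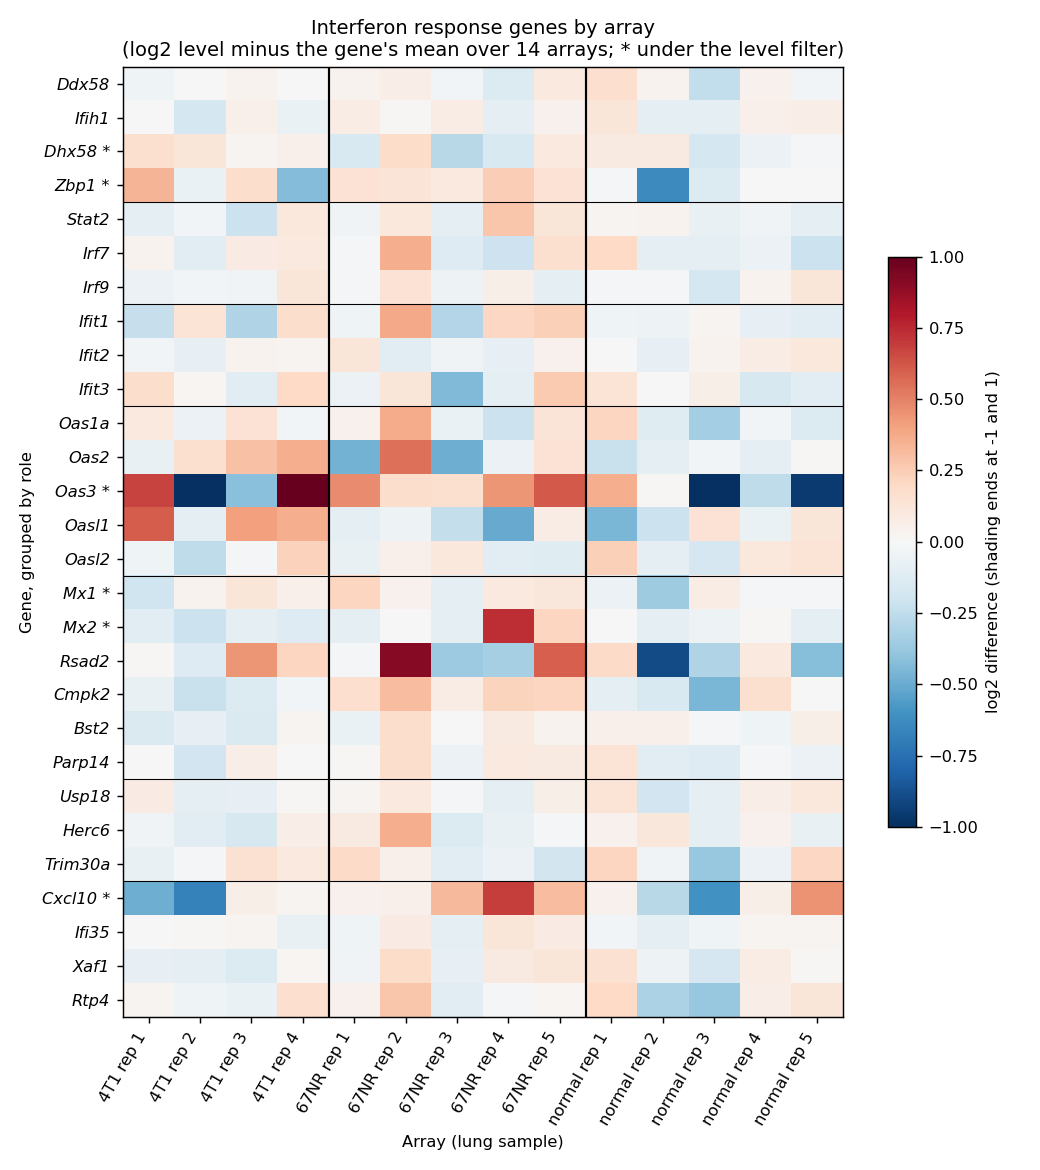
Log2 level of the 28 members in each of the 14 lungs, minus the mean of that gene over all lungs (red higher, blue lower; shading ends at -1 and 1), with genes grouped by role and an asterisk for genes under the level filter. The column of 67NR replicate 2 is mostly red and that of normal replicate 3 mostly blue, while no group of columns shares a colour.

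Single lungs stood out more than groups did. Among the 14 lungs, 67NR replicate 2 had the highest level for 12 of the 22 tested members, against 9.44% of all genes tested, and lay above the gene's mean for 20 of 22. Normal replicate 3 had the lowest level for 7 of 22, against 8.81% of all genes. This lung was also the lowest of all for markers of several immune cell types, given below. Within the 67NR group, replicate 5 lay above the mean for 18 of 22 members and replicate 3 for 4 of 22. Within the normal group, replicate 1 lay above the mean for 15 of 22 and replicates 2 and 3 for 4 of 22 each. Within the 4T1 group the counts were 9, 4, 11 and 16 in replicates 1 to 4. The share of all genes above their mean was not counted. These counts therefore cannot tell a shift of the members from a shift of the whole array.

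The mean level of the 22 members in each lung, relative to the mean of all lungs, gives the same picture. It was 0.00, -0.07, 0.02 and 0.10 in the 4T1 lungs, -0.01, 0.21, -0.12, -0.04 and 0.10 in the 67NR lungs, and 0.06, -0.11, -0.14, 0.01 and -0.01 in the normal lungs. The group values were 0.01 ± 0.07 (SD, n = 4), 0.03 ± 0.13 (SD, n = 5) and -0.04 ± 0.08 (SD, n = 5), so the lungs of a group differed more than the group means did. Without 67NR replicate 2 and normal replicate 3, a choice made after these values were seen, the median change of the members in 67NR against normal lungs was -0.018 in place of 0.035, and 6 of 22 changes lay above 0 in place of 17. Again 0 of 22 members passed in each comparison in limma, as against 0.385%, 0% and 0.412% of all genes. An unadjusted p under 0.05 was reached by 1, 1 and 3 members, and by 7.39%, 9.45% and 11.9% of all genes.

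The spread between lungs of the same group was wide for some members. The pooled SD within groups had a median of 0.15 over the 22 members and of 0.11 over all genes tested, and 9 members exceeded the upper quartile of all genes, 0.16. Rsad2 had a pooled SD of 0.45, which is percentile 98.8 among all genes tested, and Oas2 had 0.29, percentile 95.7. Oasl1 followed with 0.25 and Ifit1 with 0.21. Oas2 and Oasl1 were the dimmest tested members, with means of 7.78 and 7.88. The percentiles were taken over genes of every level and not over genes of like level. Ifi35 (0.07) and Bst2 (0.07) were steadier than most genes, at percentiles 16.2 and 19.8.

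**Figure D4:**
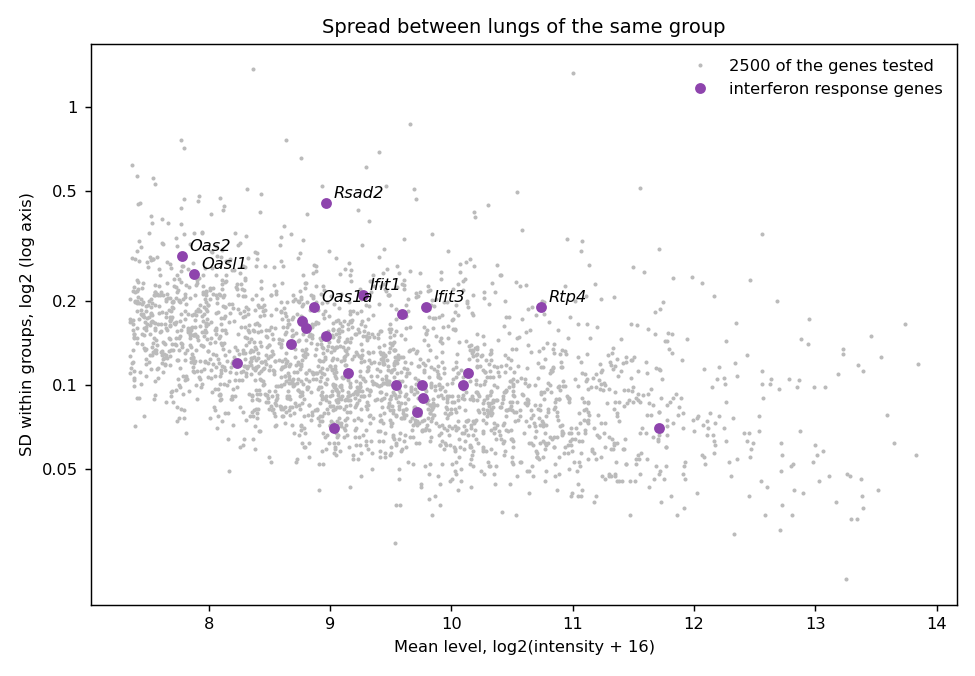
Pooled SD within groups (log2 units, log axis) against mean level on the log2(intensity + 16) scale, for the tested interferon response genes (purple) and a sample of all genes tested (grey). Rsad2 (0.45), Oas2 (0.29) and Oasl1 (0.25) have the widest spread of the members.

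The rest of the pathway was described from 7 further lists of 100 genes, with a value for 81 of them and a test for 62. In limma 0 of 62 were higher and 0 lower in each comparison, against 0.412%, 0% and 0.760% of all genes tested that passed. An unadjusted p under 0.05 was reached by 3, 4 and 5 of the 62, against 6.56%, 9.13% and 12.4% of all genes. The median change of the 62 was -0.01, 0.03 and -0.05. The receptor genes Ifnar1 and Ifnar2 had changes of 0.01 and -0.06 in 4T1 against normal lungs and of -0.05 and 0.02 in 67NR against normal lungs. The kinase genes Jak1 and Tyk2 had -0.02 and -0.08 in the former and 0.04 and -0.05 in the latter. Irf3, the factor that starts Ifnb1 transcription downstream of the sensors, had -0.01 in both.

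The interferon genes themselves were mostly dim. Of 17 type I and III interferon genes listed, 8 had a value and only Ifna2 was bright enough to be tested, with changes of 0.01, 0.11 and -0.10 in the 3 comparisons. Ifnb1, the interferon gene that is usually induced first, lay under the filter with means of 5.99, 5.99 and 5.94 in 4T1, 67NR and normal lungs. Among 34 other interferon-stimulated genes tested, 16, 27 and 9 changes lay above 0, with medians of -0.01, 0.04 and -0.05.

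Of the targets of interferon gamma, 8 were tested and 0 passed in each comparison, against 0.412%, 0% and 0.760% of all genes. Their level per lung ranged from -0.17 to 0.08 in 4T1, from -0.04 to 0.33 in 67NR and from -0.25 to 0.10 in normal lungs. Gbp6, an interferon-induced GTPase singled out after its values were seen, came closest to the threshold of all pathway genes. It was 8.60, 8.38, 8.71 and 8.52 in the 4T1 lungs, 9.14, 9.27, 9.08, 9.55 and 8.81 in the 67NR lungs, and 8.75, 8.40, 8.26, 9.03 and 8.68 in the normal lungs. All 67NR lungs lay above all 4T1 lungs, and normal lungs reached into both ranges. The change was -0.61 (SE 0.15, adjusted p = 0.0854 in limma) in 4T1 against 67NR lungs and 0.54 (adjusted p = 0.30) in 67NR against normal lungs. Gbp6 passed in limma in 4T1 against 67NR lungs without 67NR replicate 5 (-0.70, adjusted p = 0.0385) and with array weights (adjusted p = 0.0464). It passed in no other of 27 alternative settings, where its adjusted p reached up to 0.238.

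Markers of cell types were measured beside these genes, since whole lung mixes many cells. In such bulk samples, fewer cells of a type and less RNA per cell cannot be told apart. All 10 markers of lung epithelium and endothelium were tested and lay above the median level of all genes tested. In each comparison 0 were called, against 0.412%, 0% and 0.760% of all genes, and median changes were -0.04, 0.00 and -0.03. Neutrophil markers moved with the 4T1 group: 8 of 9 tested passed in limma as higher in 4T1 than in normal and than in 67NR lungs. Of all genes 0.412% and 0.760% passed in these comparisons. The median changes of the neutrophil markers were 2.34 and 2.10. Their mean level per lung ranged from 1.10 to 1.71 in 4T1, from -0.75 to -0.13 in 67NR and from -0.96 to -0.30 in normal lungs, while that of the interferon response genes ranged from -0.07 to 0.10, from -0.12 to 0.21 and from -0.14 to 0.06. The part of neutrophil content in the values of Oasl1 and Bst2 in 4T1 lungs was not tested.

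Markers of monocytes and macrophages (9 tested), plasmacytoid dendritic cells, the main circulating source of interferon alpha (5 tested), T and NK cells (7 tested) and B cells (5 tested) gave 0 calls in limma in each comparison. Of all genes 0.412%, 0% and 0.760% passed. Their median changes lay between -0.04 and 0.12. An unadjusted p under 0.05 in limma was reached by 3, 0 and 1 of the 9 monocyte and macrophage markers. B cell markers varied widely within groups, from -0.54 to 0.68 per lung in 4T1 and from -0.62 to 0.44 in normal lungs. Normal replicate 3 was the lowest lung for B cells (-0.62), monocytes and macrophages (-0.22) and plasmacytoid dendritic cells (-0.19). For T and NK cells it stood at -0.10. Output genes of the circadian clock were spread widely within the 67NR group: their level was -2.12, -0.20, -1.53, -0.33 and 0.34 in replicates 1 to 5, against 0.17 to 0.57 in 4T1 and 0.03 to 0.71 in normal lungs. None of the 8 passed in limma, with a smallest adjusted p of 0.0735. At an unadjusted p under 0.05 there were 8 of 8 in 67NR against normal lungs (median change -1.002), against 9.13% of all genes. The count was 7 of 8 in 4T1 against 67NR lungs (median change 1.05), against 12.4% of all genes. The labels give no time of collection. In the 67NR lungs with the lowest clock level, replicates 1 and 3, the interferon response genes stood at -0.01 and -0.12. Without these replicates 0 of 22 members passed in each comparison in limma, as against 0.357%, 0.101% and 0.44% of all genes. At an unadjusted p under 0.05 there were then 2, 7 and 7 of 22 members, against 6.91%, 11.5% and 13.1% of all genes. The median change in 67NR against normal lungs was 0.114 without them, with Rsad2 at 0.66 (adjusted p = 0.402), Cmpk2 at 0.36 (adjusted p = 0.23) and Ifit1 at 0.32 (adjusted p = 0.259). The part of the clock phase in these values was not tested.

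**Figure D5:**
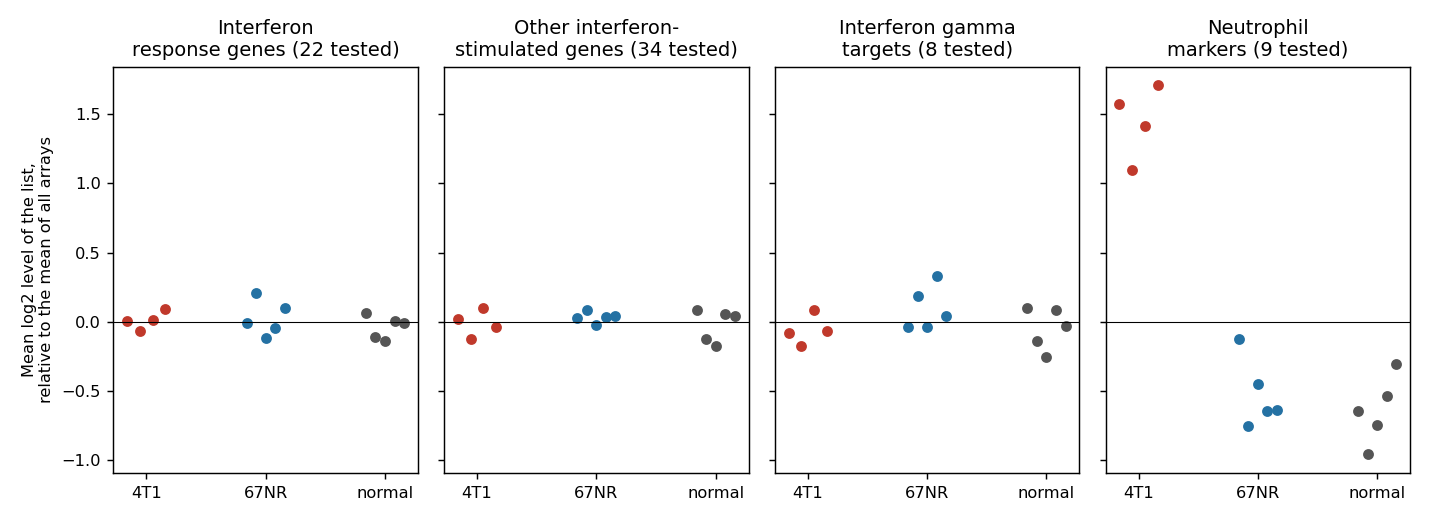
Mean log2 level of 4 gene lists in each lung, relative to the mean of all lungs, for the 22 tested interferon response genes, 34 other interferon-stimulated genes, 8 interferon gamma targets and 9 neutrophil markers, by group. The first 3 lists overlap between groups, while the neutrophil markers lie at 1.10 to 1.71 in 4T1 lungs and under 0 in all others.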

How the data were processed

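Lung RNA of 14 samples was measured on Affymetrix arrays, 1 per sample. The authors deposited linear probe set intensities for 45101 probe sets. Their probe set summary, background correction and normalisation were not given in the sources used here. Array medians lay between 113.2 and 116.1, and root mean square log2 differences within groups between 0.17 and 0.28, with 0 pairs of identical arrays. Only the 34958 probe sets with 1 gene symbol in the platform annotation were used. Values were taken as log2(intensity + 16), which understates changes of dim genes. Each gene was represented by its brightest probe set on average, and genes in the upper 60% of mean level (above 7.35) were tested. A model with 1 mean per group was fitted with limma 3.58.1 in R 4.3.3 (residual degrees of freedom, 11). Two-sided limma p-values were adjusted by Benjamini-Hochberg over all genes tested. The code was tested on simulated data. No detection calls were used, and the number of arrays limits the precision.

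The members and the further lists were chosen with earlier results of these data known. All 30 members were named, by role; of the other pathway genes, those past the threshold and Ifnar1, Ifnar2, Jak1, Tyk2, Irf3 and Ifnb1. Alternatives covered normalisation, filter, offset, probe set choice, variance model, array weights, the groups fitted and left-out arrays. Promoters came from RefSeq (GRCm38.p6).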

Additional observations from a re-analysis of the deposited data

Results flagged for a closer look

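In 2 of 87 groups of lungs examined (2.30%), 1 lung lay far from the others of its group; chance marks about 1 in 20 such groups. Zbp1, a nucleic acid sensor under the level filter, was 6.29 in normal replicate 2 and 6.79 to 6.93 in the other normal lungs. Irf9, a subunit of ISGF3, was 9.88 in 4T1 replicate 4 and 9.70 to 9.73 in the other 4T1 lungs.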

How the results depend on the processing

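Over 28 alternative settings, 2 of them added after these values were seen, 0 of the interferon response genes passed in limma in any comparison, with lowest adjusted p at 0.207 in 4T1 against normal, 0.23 in 67NR against normal and 0.0572 in 4T1 against 67NR lungs. Unadjusted p under 0.05 was reached by 0 to 3, 1 to 7 and 2 to 7 members, counted as probe sets where these were kept apart. In the main fit 6.56%, 9.13% and 12.4% of all genes reached it. The fit without 67NR replicates 1 and 3 gave 7 in 67NR against normal and 7 in 4T1 against 67NR lungs. In that fit 11.5% and 13.1% of all genes reached that p. The median change of the members ranged from -0.032 to 0.021, from -0.018 to 0.114 and from -0.066 to -0.005, so its sign depended on the setting in the 2 comparisons with normal lungs. Of 1770 values of single members, 134 changed sign, all of them values not past the threshold. Among the other pathway genes the count of 0 became 1 in 4T1 against normal lungs with probe sets of a gene averaged (Cgas, -0.37, adjusted p = 0.00733), and 1 in 4T1 against 67NR lungs with array weights (Gbp6). Leaving out 1 array at a time gave 0 to 1 there, the 1 being Gbp6 without 67NR replicate 5, and 0 in the other comparisons. With the replicate number as a block, 0 members passed in each comparison. The labels do not state that the numbers pair lungs. Of 13 same-numbered pairs of lungs 3 had a correlation of deviations above 0.1, over a range of -0.34 to 0.22. These correlations cannot show that same-numbered lungs were unrelated. With 4 or 5 arrays a group, the 95% intervals of Rsad2, Oas2 and Oasl1, the more variable members, reached beyond 1.5-fold in the comparisons with 4T1 lungs. That of Rsad2 reached a log2 change of 0.98 in 4T1 against normal lungs. Dim genes such as Oas3 and Cxcl10 have no detection call behind them.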
